A study of Mus musculus with 15 samples.

Results

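The genes described here make cholesterol and fatty acids or control that synthesis: 30 genes were listed by name, among them 17 enzymes of the mevalonate and sterol pathways. They were read in choroid plexus, the source of most cerebrospinal fluid, on 15 whole-transcript Affymetrix arrays of C57BL/6J mice labelled male and 3 weeks old. The groups were 5 Add1 wild-type, 5 Add1 heterozygous and 5 Add1 null animals, with 1 array each, taken before hydrocephalus develops in the null animals, as the series' text puts it. Add1 encodes alpha-adducin, a membrane skeleton protein, and is a different gene from Srebf1, which has also been called ADD1. The sources used here do not describe how the null allele was made. Of the 30 listed genes, 29 had a probe set named in the platform annotation, out of 19938 genes with one; Acat2 is not analysed here. All 29 were above the expression filter (a log2 signal over 5.31) in every one of the 15 arrays, so none was tested only because of the group in which it was high.

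Cells build cholesterol from acetyl-CoA through mevalonate, isoprenoid diphosphates, squalene and lanosterol, and they build fatty acids from the same acetyl-CoA through malonyl-CoA. When sterols in the endoplasmic reticulum run low, the escort protein Scap carries the precursors of the transcription factors encoded by Srebf1 and Srebf2 to the Golgi, where proteases release the active factor; Insig1 and Insig2 retain Scap when sterols are plentiful. Srebf2 is best known for driving the sterol enzymes and Srebf1 the fatty acid enzymes, and Srebf1 is also a target of the oxysterol-sensing liver X receptors, as are the efflux transporters Abca1 and Abcg1 and the ubiquitin ligase Mylip. The sterol factors usually act together with the CCAAT-binding factor NF-Y.

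Promoters are shown for Idi1, Ebp and Srebf1, the 3 genes called in a comparison of genotypes that have a promoter entry, and for Hmgcs1, which was added after its sterol element match was seen. RefSeq promoter entries (mouse build GRCm38.p6, 250 bases before to 50 after each annotated start) existed for 24 of the 30 listed genes. They were searched on both strands for a sterol regulatory element (TCACNCCAC, reverse complement GTGGNGTGA), an E-box (CACGTG) and a CCAAT box (CCAAT, reverse complement ATTGG), and matches to different motifs shared a base in 0 places in the members' promoters. The lines below give 200 bases upstream of the start, 5′ to 3′ on the gene's strand, with matches in capitals.
Hmgcs1, chr13:119690151-119690350, plus strand: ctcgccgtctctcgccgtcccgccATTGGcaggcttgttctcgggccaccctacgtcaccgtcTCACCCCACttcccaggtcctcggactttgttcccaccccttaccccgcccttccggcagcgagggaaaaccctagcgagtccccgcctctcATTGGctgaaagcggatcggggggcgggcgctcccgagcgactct
Idi1, chr13:8885406-8885605, plus strand: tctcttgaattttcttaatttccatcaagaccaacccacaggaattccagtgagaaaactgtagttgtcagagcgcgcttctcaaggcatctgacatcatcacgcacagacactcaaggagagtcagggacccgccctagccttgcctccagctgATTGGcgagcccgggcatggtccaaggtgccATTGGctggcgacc
Ebp, chrX:8193513-8193712, minus strand: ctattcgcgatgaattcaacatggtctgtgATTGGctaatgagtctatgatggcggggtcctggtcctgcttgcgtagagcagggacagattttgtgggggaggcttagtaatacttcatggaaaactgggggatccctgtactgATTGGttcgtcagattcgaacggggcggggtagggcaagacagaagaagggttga
Srebf1, chr11:60210472-60210671, minus strand: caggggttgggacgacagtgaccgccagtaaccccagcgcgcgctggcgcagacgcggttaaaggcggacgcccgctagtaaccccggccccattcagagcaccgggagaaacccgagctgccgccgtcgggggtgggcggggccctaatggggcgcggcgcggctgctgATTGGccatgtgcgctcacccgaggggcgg

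The Hmgcs1 promoter held the one sterol element match among the 24 genes, as TCACCCCAC 137 bases upstream of the start. That is 4.17% of the members, beside 1.41% of the 8238 tested genes that have a promoter entry and 1.44% of all 27025 genes. CCAAT boxes, in contrast, were present in 20 of 24 members (83.3%) and in 14 of the 14 sterol enzymes with an entry, beside 42.8% of tested genes and 41.1% of all genes. In the sequences shown, Idi1 carries a CCAAT box as ATTGG at 45 and at 14 bases upstream, Ebp at 170 and 55, and the Srebf1 promoter at 30. Srebf1 has 2 further annotated starts, of which one held a CCAAT match 166 bases upstream and the other none of the 3 motifs. E-boxes lay in 5 of 24 members (20.8%), namely Dhcr7, Hsd17b7, Sc5d, Insig1 and Scap, beside 12.3% of tested genes. A match is a description of the letters, not evidence of a factor binding there in this tissue.

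Several facts of the whole series touch the results. Wild-type arrays gave an Add1 signal of 7.92 ± 0.116, heterozygous arrays one of 7.76 ± 0.0996 and null arrays one of 7.61 ± 0.161 (SD, n = 5 each), so that the null signal was still 80.6% of wild type; the part of the transcript that the allele removes is not given, and this probe set therefore checks the labels only in part. Null arrays 1 and 5 went against the male label: Xist, the RNA of the inactive X chromosome, read 9.09 and 9.69 there and between 3.11 and 3.88 in the other 13 arrays, and the Y-linked gene Eif2s3y read 3.19 and 3.34 there and at least 6.92 elsewhere. They are called the arrays with Xist signal below, and Ebp and Nsdhl are the members on the X chromosome whose promoter entries place them there. Of 10 measured markers of choroid plexus epithelium, 1 was called higher in null against wild type, Aqp1 (0.34, limma adjusted p = 0.00256). Called lower were 2, Kcne2 (-0.24, limma adjusted p = 0.0257) and Kcnj13 (-0.23, limma adjusted p = 0.0270). Folr1, which was not called, read 11.3 ± 0.0430 in wild-type and 11.4 ± 0.0856 in null arrays (SD, n = 5 each). The mean of the 10 in any array lay between -0.11 and 0.047 of the wild-type mean on the log2 scale. Heterozygous array 1 stood apart in markers of brain cells, with mean deviations from wild type of 1.42 over 7 cerebellar granule cell markers, 1.07 over 9 neuron markers, 0.87 over 11 oligodendrocyte markers and 0.77 over 10 astrocyte and radial glia markers; results against heterozygous arrays are therefore also given without it. In whole tissue, fewer cells of a type and less RNA per cell cannot be told apart.

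Null against wild type asks what expression differs when Add1 is lost, before hydrocephalus. The sterol pathway read lower in null choroid plexus: with all arrays, all 17 mevalonate and sterol enzymes had a mean below wild type. That count depended on single arrays. Pmvk came just above wild type without wild-type array 2, and Mvk did without null array 5. Without null array 1, the null means of Mvk and Lss lay above wild type. Without both arrays with Xist signal, those of Mvk, Lss and Pmvk did, and the other enzymes stayed below. With all arrays, the difference of a single enzyme, Idi1, passed the test across all genes. Srebf1 rose to 139% of the wild-type signal, while Idi1 fell to 62.1% and the fatty acid desaturase Scd1 to 67.9%. Of all 10109 genes tested, 780 (7.72%) were called at an adjusted p under 0.05, 422 higher (4.17%) and 358 lower (3.54%). Among the 29 members 1 was called higher and 2 lower, so the share called was near the background in either direction. In direction, 25 of 29 members had a null mean below wild type, beside 46% of all genes. At an unadjusted p under 0.05, 13 were lower, with Idi1 and Scd1 among them, beside 10.8% of all genes. The first count was 21 without null array 1 and 19 without both arrays with Xist signal. The members were listed with earlier results of these data known, so these counts describe them and are not a test. The median difference was -0.16 over the members and 0.012 over all genes. With arrays centred on their median, 26 of 29 were below wild type, and with arrays quantile normalized again 25 were.

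**Figure D1:**
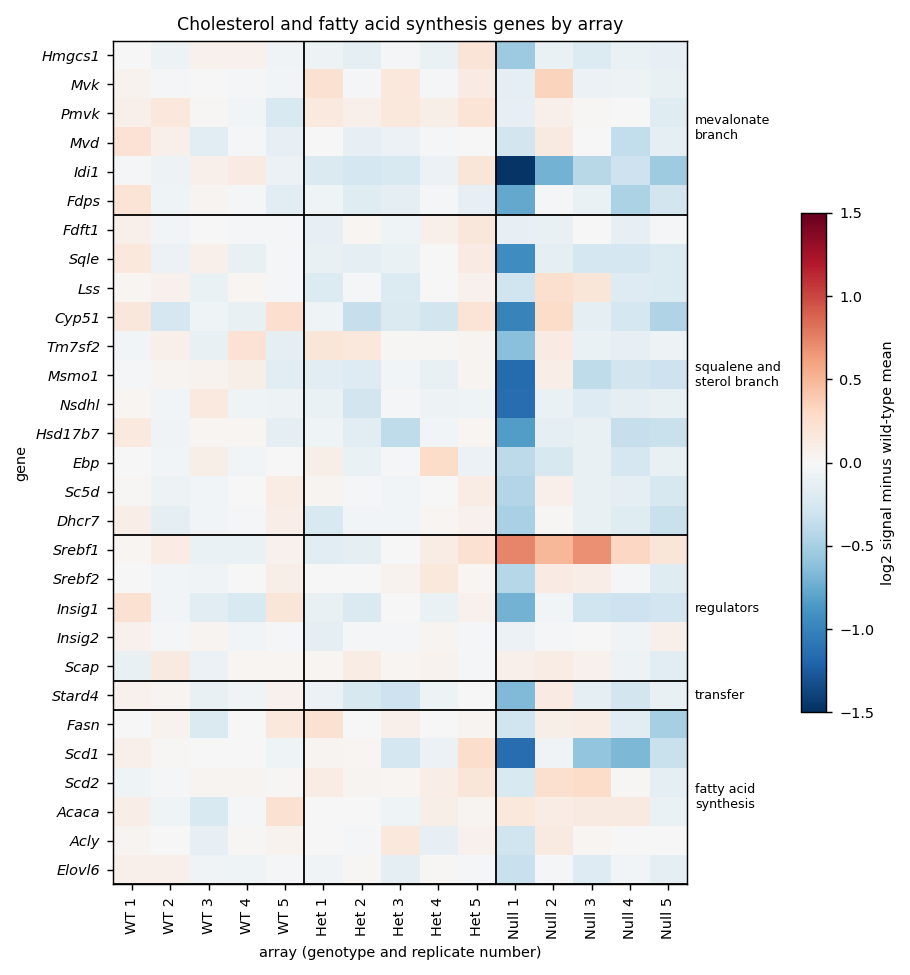
Heat map of the log2 signal of the 29 measured genes (rows, grouped by role) in the 15 arrays (columns, by genotype and replicate number), each minus the gene's wild-type mean; blue is lower and red is higher. Null array 1 is the column of lowest values, at a mean of -0.63 over the 17 sterol enzymes, and null array 2, at -0.0092, reads close to wild type.

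In the mevalonate branch, which turns acetyl-CoA units into farnesyl diphosphate, Idi1 was the gene that passed the test. Idi1 encodes isopentenyl-diphosphate isomerase, which makes the allylic partner needed for chain building. It read 8.12, 8.07, 8.22, 8.27 and 8.06 in wild-type arrays 1 to 5, 7.93, 7.88, 7.92, 8.06 and 8.33 in heterozygous arrays, and 6.68, 7.44, 7.73, 7.84 and 7.61 in null arrays. All 5 null arrays lay below every wild-type and heterozygous array, with null array 1 far below the other 4. The means were 8.15 ± 0.0931 and 7.46 ± 0.461 (SD, n = 5 each), and Idi1 fell by 0.69 on the log2 scale (SE 0.158, 95% interval -1.02 to -0.35, limma adjusted p = 0.0142). A second probe set named Idi1, at 7.81 in wild-type and 7.23 in null arrays on average, gave a difference of -0.58 (SE 0.155, adjusted p = 0.0300 in the fit of all probe sets); against heterozygous arrays its adjusted p was 0.0828. Signal from close copies of Idi1, such as its neighbour Idi2 or any copy elsewhere in the genome, was not tested for either probe set. The call held in each of the 15 fits that left out 1 array, in which the difference ran from -0.78 to -0.49, and in the fit without both arrays with Xist signal (-0.48, adjusted p = 0.0203); it was lost without moderated variances (adjusted p = 0.0543).

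The other 5 enzymes of this branch differed by -0.33 to -0.020 and were not called. Fdps, which makes farnesyl diphosphate, read 8.22 ± 0.136 in wild-type and 7.90 ± 0.301 in null arrays (log2 difference -0.33, SE 0.110, adjusted p = 0.0790). Hmgcs1, the synthase at the entry of the pathway, read 9.58 ± 0.0654 and 9.37 ± 0.189 (SD, n = 5 each), a difference of -0.21 (SE 0.0839, adjusted p = 0.126). Its null arrays ran from 9.04 to 9.49 and all lay below the lowest wild-type array, at 9.51, whereas heterozygous arrays 2 and 4, at 9.44 and 9.48, lay within the null range. The median of the branch was -0.17.

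The 11 enzymes of the squalene and sterol branch had differences between -0.40 and -0.054, with a median of -0.22, and none was called; 7 of the 11 were lower at an unadjusted p under 0.05. The lowest p was that of Hsd17b7, a ketosteroid reductase of C4 demethylation, at 7.06 ± 0.104 in wild-type and 6.70 ± 0.292 in null arrays (difference -0.35, SE 0.113, adjusted p = 0.0663). Sqle, the epoxidase that commits squalene to sterols, read 8.40, 8.16, 8.32, 8.13 and 8.21 in wild-type arrays, 8.13, 8.11, 8.14, 8.24 and 8.37 in heterozygous arrays, and 7.31, 8.11, 7.98, 7.98 and 8.04 in null arrays. Every null array was below every wild-type array, yet null array 2, at 8.11, came next to the lowest wild-type array, at 8.13, and null array 1 stood well below the rest (difference -0.36, SE 0.117, adjusted p = 0.0677). Ebp, the sterol isomerase, read 6.97, 6.93, 7.05, 6.92 and 6.96 in wild-type arrays, 7.05, 6.87, 6.94, 7.24 and 6.88 in heterozygous arrays, and 6.57, 6.72, 6.86, 6.71 and 6.85 in null arrays. The null arrays again lay wholly below both other genotypes, by a small step, and the difference of -0.22 from wild type had an adjusted p of 0.0711 (SE 0.0737). Without heterozygous array 4, which enters the estimate of the spread, that adjusted p was 0.0422.

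Over all 29 members, the null arrays were separate from the wild-type arrays in 5 genes that were lower, Hmgcs1, Idi1, Sqle, Nsdhl and Ebp, and in 1 that was higher, Srebf1. The background was 2.49% of all genes lower and 3.45% higher. The other enzymes of the squalene and sterol branch ranged from Lss, the cyclase that closes the sterol rings, at 6.91 ± 0.0663 in wild-type and 6.86 ± 0.246 in null arrays (difference -0.054), to Msmo1, a methyl oxidase, at 10.0 ± 0.0961 and 9.63 ± 0.458 (difference -0.40, adjusted p = 0.109).

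Among the 5 regulators, Srebf1 went the other way. It read 8.16, 8.24, 8.04, 8.03 and 8.20 in wild-type arrays, 7.97, 7.99, 8.14, 8.25 and 8.36 in heterozygous arrays, and 8.87, 8.63, 8.82, 8.44 and 8.31 in null arrays. All null arrays were above all wild-type arrays, and null array 5 read below the highest heterozygous array. Srebf1 rose from 8.13 ± 0.0948 to 8.61 ± 0.240 (SD, n = 5 each), a difference of 0.48 (SE 0.102, 95% interval 0.27 to 0.69, adjusted p = 0.00944). In the fits that left out 1 array the difference ran from 0.42 to 0.56 and was called in each of the 15. With the label number as a covariate it was 0.52 and no longer called (adjusted p = 0.0820). That number is mostly higher in null arrays, so this fit cannot cleanly separate the number from genotype. The arrays have 1 probe set for Srebf1, which does not tell apart the transcripts that begin at its different starts.

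Insig1, the sterol-responsive retention factor, read 9.41, 9.14, 9.02, 8.95 and 9.36 in wild-type arrays, 9.07, 8.96, 9.18, 9.08 and 9.24 in heterozygous arrays, and 8.47, 9.14, 8.88, 8.87 and 8.89 in null arrays. Null array 2 reached the wild-type range and the other 4 lay below it (difference -0.33, SE 0.109, adjusted p = 0.0758). Its relative Insig2 read 9.17 ± 0.0497 in wild-type and 9.16 ± 0.0643 in null arrays, a difference of -0.016 with a 95% interval of -0.13 to 0.094. Srebf2, the sterol-regulating factor itself, read 8.58 ± 0.0537 and 8.50 ± 0.229 (difference -0.080, adjusted p = 0.611). Scap, the escort of both factors, had a difference of 0.0020 (95% interval -0.13 to 0.14). These intervals exclude, for Insig2 and Scap, a difference as large as that of Insig1, and they do not show equality.

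Stard4, a sterol transfer protein and the single gene measured in its class, read 6.08 ± 0.0765 in wild-type and 5.87 ± 0.288 in null arrays (difference -0.21, SE 0.106, adjusted p = 0.240).

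**Figure D2:**
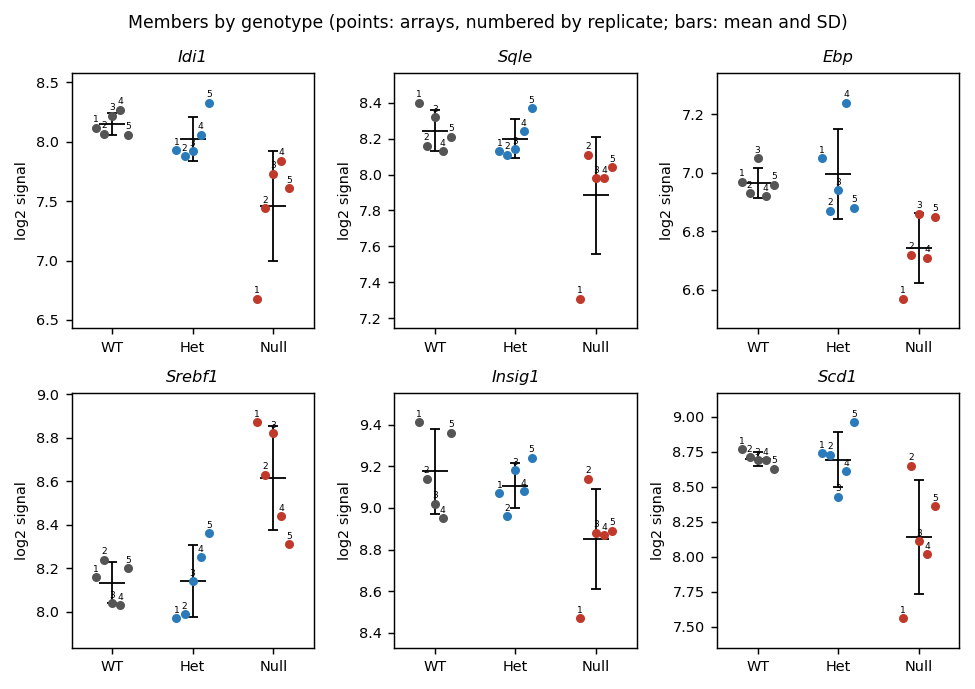
Log2 signal of Idi1, Sqle, Ebp, Srebf1, Insig1 and Scd1 in each array (points, numbered by replicate) of the 3 genotypes, with the mean and SD as bars. Null array 1 is lowest of the null arrays in 5 of the 6 panels and highest for Srebf1, at 8.87.

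The 6 genes of fatty acid synthesis were split. Scd1, the desaturase that makes monounsaturated fatty acids, read 8.77, 8.71, 8.69, 8.69 and 8.63 in wild-type arrays, 8.74, 8.73, 8.43, 8.61 and 8.96 in heterozygous arrays, and 7.56, 8.65, 8.11, 8.02 and 8.36 in null arrays. The wild-type arrays lay close together, while the null arrays were spread widely and null array 2, at 8.65, lay within the wild-type range. Scd1 fell by 0.56 (8.70 ± 0.0502 to 8.14 ± 0.406, SD, n = 5 each; SE 0.143, adjusted p = 0.0259). Of the 15 fits that each dropped an array, 5 no longer called Scd1: wild-type arrays 1, 2 and 3 and null arrays 1 and 3 were the ones dropped (differences -0.56 to -0.41, adjusted p between 0.0523 and 0.0672), and the fit without both arrays with Xist signal did not call it either (-0.44, adjusted p = 0.0655). Scd1 was also not called in the fit to the null and wild-type arrays alone, or without moderated variances. Its paralog Scd2 had a difference of 0.032 (95% interval -0.14 to 0.21). Elovl6, an elongase of saturated chains, read 8.77 ± 0.0683 and 8.62 ± 0.127 (difference -0.15, adjusted p = 0.167). Fasn, the fatty acid synthase, read 7.20 ± 0.135 and 7.04 ± 0.258 (difference -0.15, adjusted p = 0.382). Acly, which supplies cytosolic acetyl-CoA, and Acaca, which makes malonyl-CoA, differed by -0.026 and 0.088. The median of the class was -0.086.

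**Figure D3:**
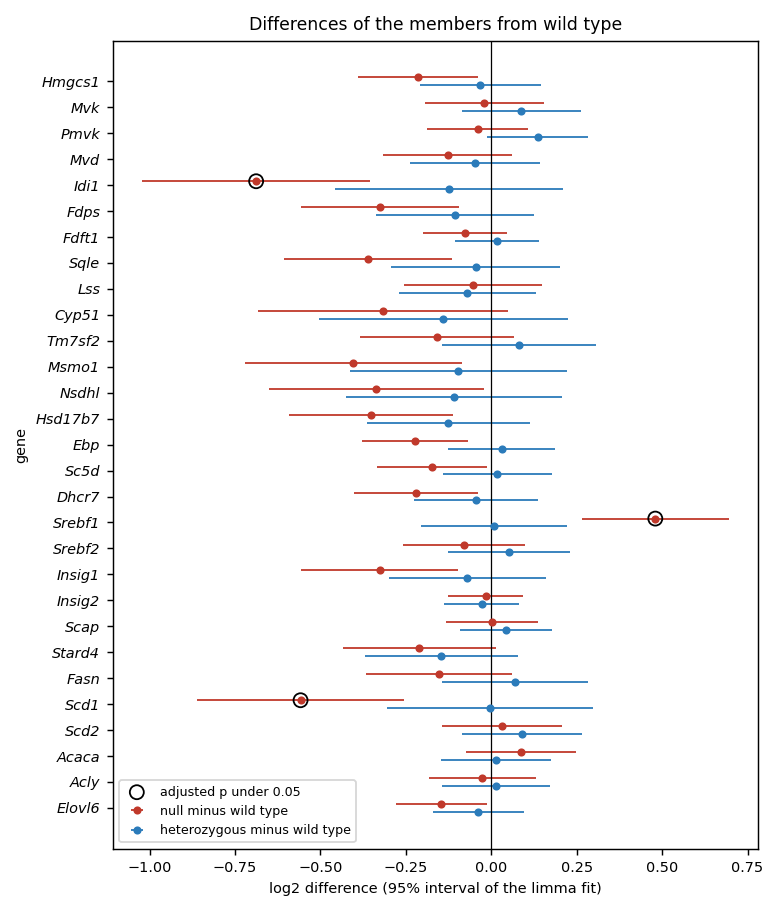
Log2 difference from wild type of each of the 29 genes, null (red) and heterozygous (blue), with the 95% interval of the limma fit; circles mark an adjusted p under 0.05. The null points of all 17 sterol enzymes lie left of 0, with the intervals of 10 of them clear of it, and the heterozygous intervals all cross 0.

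The null arrays differed from one another more than the arrays of either other genotype. Over the 17 sterol enzymes null arrays 1 to 5 had mean deviations from wild type of -0.63, -0.0092, -0.13, -0.21 and -0.22. The wild-type arrays lay between -0.049 and 0.071 and the heterozygous arrays between -0.10 and 0.075, so that 4 null arrays were below all 10 other arrays and null array 2 was among them. Null array 1 was alone the lowest of all 15 arrays in 21 of the 29 members, where 11.6% of all genes had it lowest, and in 14 of the 17 sterol enzymes. Null array 2 was the highest null array in 20 of 29, against 33.4% of all genes. The SD over null arrays was above that over wild-type arrays in 27 of 29 members and in 73.4% of all genes. The median SD of the sterol enzymes was 0.246 in null and 0.0961 in wild-type arrays, beside 0.138 and 0.0945 over all genes.

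The count of calls rested on single arrays. Without null array 1, Idi1 (-0.49, adjusted p = 0.00805) and Srebf1 (0.42, adjusted p = 0.0278) were called, 21 of 29 members were below wild type and the median was -0.098. That fit called 401 of all genes, against 780 with all arrays, and 1.72% of all genes were called lower. Without null array 2, 10 members were called: Srebf1 higher, and Idi1, Fdps, Sqle, Msmo1, Hsd17b7, Sc5d, Dhcr7, Insig1 and Scd1 lower. In that fit 1420 of all genes were called, 7.08% of all genes lower. Without both arrays with Xist signal, Idi1 and Srebf1 (0.50, adjusted p = 0.0121) were called, 19 of 29 members were below wild type, the median was -0.073, and 401 genes were called in all.

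**Figure D4:**
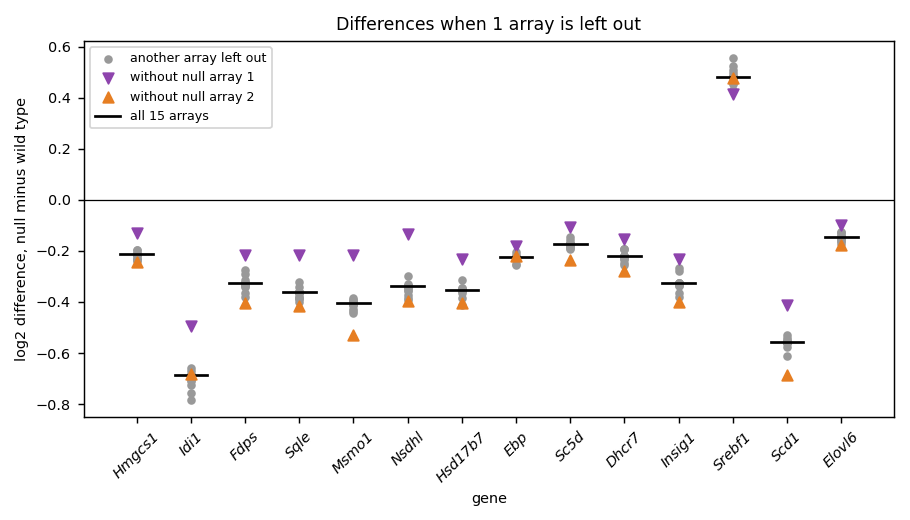
Log2 difference between null and wild type for the 14 members with an unadjusted p under 0.05, in the fit of all 15 arrays (black bar) and in each fit without 1 array (points; triangles for null arrays 1 and 2). Leaving out null array 1 moves the lower genes toward 0, Msmo1 from -0.40 to -0.22, and Srebf1 stays between 0.42 and 0.56.

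Null against heterozygous compares the same null arrays with the other 5 controls, so it is not independent of the comparison above. In it 791 of 10109 genes were called (7.82%), 433 higher (4.28%) and 358 lower (3.54%). Of the members, Srebf1 was called higher (0.47, SE 0.102, adjusted p = 0.0111) and Scd1 (-0.55, SE 0.143, adjusted p = 0.0277), Idi1 (-0.56, SE 0.158, adjusted p = 0.0385) and Ebp (-0.25, SE 0.0737, adjusted p = 0.0429) lower. Null and heterozygous arrays did not overlap in 3 members, Idi1, Ebp and Pmvk (phosphomevalonate kinase), all lower in null, against 2.73% of all genes lower and 3.03% higher. The median over the members was -0.18, 25 of 29 were below the heterozygous mean beside 47.6% of all genes, and 10 were lower at an unadjusted p under 0.05 beside 11.9%. Srebf1 was called in all 15 fits without 1 array. Idi1 was not called in 6 of them, those without wild-type array 2 or any one heterozygous array (adjusted p up to 0.0834). Scd1 was not called in 6, those that left out any of heterozygous arrays 1, 2 and 5 and null arrays 1, 3 and 4 (adjusted p from 0.0514 to 0.0610). Ebp was not called in 11 (adjusted p from 0.0509 to 0.116) and was called when heterozygous array 2, heterozygous array 5, null array 2 or null array 5 was the one left out. Without heterozygous array 1, Srebf1 was the one member called, Scd1, Idi1 and Ebp having adjusted p-values of 0.0566, 0.0598 and 0.0885, and 27 of 29 members were below the heterozygous mean. That fit called 456 of all genes. Without both arrays with Xist signal Srebf1 alone of the members was called (0.49, adjusted p = 0.0173), beside 332 of all genes, and the median was -0.049.

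Heterozygous against wild type asks whether the loss of 1 allele alters the genes. No gene of 10109 was called (0%) by limma, 381 had an unadjusted p under 0.05 (3.77%), and the unmoderated linear model also called 0. Of the members, 0 were called and 0 had an unadjusted p under 0.05. Their differences ran from -0.15 to 0.14, with a median of -0.028 beside 0.0020 over all genes, and 16 of 29 were below wild type, beside 48.4% of all genes; with arrays centred on their median, 21 of 29 were, and without heterozygous array 1, 14 were, with 0 members called.

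The 3 smallest p-values belonged to Pmvk, Stard4 and Hsd17b7. Pmvk, phosphomevalonate kinase, read 6.32, 6.40, 6.26, 6.20 and 6.01 in wild-type arrays, 6.38, 6.32, 6.40, 6.33 and 6.44 in heterozygous arrays, and 6.12, 6.31, 6.26, 6.24 and 6.06 in null arrays. Its wild-type and heterozygous arrays overlapped (difference 0.14, SE 0.0702, limma adjusted p = 0.994). Stard4 read 6.14, 6.12, 5.97, 6.03 and 6.14 in wild-type arrays, 5.99, 5.84, 5.77, 6.0 and 6.07 in heterozygous arrays, and 5.42, 6.20, 5.95, 5.81 and 5.97 in null arrays. Heterozygous and wild-type arrays overlapped here too, and null array 2 had the highest value of all 15 (heterozygous difference -0.15, SE 0.106, adjusted p = 0.994). Hsd17b7 read 7.20, 7.0, 7.08, 7.08 and 6.92 in wild-type arrays, 6.99, 6.90, 6.67, 7.01 and 7.08 in heterozygous arrays, and 6.22, 6.92, 6.95, 6.71 and 6.72 in null arrays. The 3 genotypes overlapped in pairs (heterozygous difference -0.13, SE 0.113, adjusted p = 0.994). For the genes called in null animals the heterozygous interval set a bound: Idi1 differed by -0.12 (95% interval -0.46 to 0.21), Srebf1 by 0.0080 (-0.21 to 0.22) and Scd1 by -0.0040 (-0.31 to 0.30).

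Against the midpoint of null and wild type, 24 of 29 members had a heterozygous mean above the midpoint, with a median of 0.066 (50.6% of all genes lay below it), and 0 were called, beside 6 of all genes (0.0594%). Without null array 1, 10 of 29 members were below the midpoint, at a median of 0.034; without both arrays with Xist signal 12 were below, at a median of 0.0043; and without heterozygous array 1, 4 were below. At an unadjusted p under 0.05, 3 members were above the midpoint and Srebf1 was below it; all genes gave 6% and 6.89%. Srebf1 lay 0.23 below the midpoint (SE 0.0883, adjusted p = 0.316) and Scd1 0.275 above it (SE 0.124, adjusted p = 0.371). A linear trend over 0, 1 and 2 wild-type alleles called 567 genes (5.61%), 251 rising with alleles (2.48%) and 316 falling (3.13%). Idi1 rose by 0.34 per allele (SE 0.0829, adjusted p = 0.0243) and Scd1 by 0.28 (SE 0.0793, adjusted p = 0.0466), while Srebf1 fell by 0.24 (SE 0.0589, adjusted p = 0.0261). Over the 15 fits without 1 array, the Idi1 slope was called in each, that of Srebf1 was not called in 3 (leaving out wild-type array 3, null array 1 or null array 3, adjusted p up to 0.0843), and that of Scd1 was called in 4 (leaving out wild-type array 5, heterozygous array 1, heterozygous array 5 or null array 2) and reached an adjusted p of 0.118 in the others. These slopes rest on the same null arrays, and without both arrays with Xist signal 0 members were called, beside 117 of all genes.

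Other genes of sterol and fatty acid handling were read from a list of 37, of which 30 had a named probe set and 29 were tested. In null against wild type 3 were called higher and 1 lower, beside 4.17% and 3.54% of all genes, and the median was 0.026. Mylip, the ubiquitin ligase that directs the LDL receptor to degradation and is a liver X receptor target, read 7.02, 7.07, 6.96, 7.22 and 7.0 in wild-type arrays, 6.91, 7.08, 7.04, 7.22 and 7.47 in heterozygous arrays, and 8.0, 7.40, 7.73, 7.52 and 7.61 in null arrays. All null arrays were above all wild-type arrays (difference 0.60, SE 0.108, 151% of wild type, adjusted p = 0.00343), and the call held in each of the 15 fits without 1 array; with the label number as a covariate it was lost (0.56, adjusted p = 0.0801).

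Abcg1, a cholesterol efflux transporter, rose from 7.53 ± 0.0646 to 7.86 ± 0.207 (difference 0.32, SE 0.0872, adjusted p = 0.0313), and its arrays overlapped at the edge, 7.64 being the highest wild-type and 7.62 the lowest null value. Mbtps1, the protease that makes the first cut in the factor precursors, rose from 8.81 ± 0.0930 to 9.05 ± 0.0978 (difference 0.24, SE 0.0652, adjusted p = 0.0338). Abcg1 lost its call on leaving out any of wild-type arrays 1 to 4, null array 1 and null array 3 (adjusted p from 0.0617 to 0.0795). Mbtps1 lost its call on leaving out any of wild-type arrays 1, 3 and 5 and null arrays 1, 3 and 4 (adjusted p from 0.0545 to 0.0989). Of the 13 alternatives other than these fits, 6 did not call Abcg1 (limma or linear model adjusted p up to 0.0906). Mbtps1 was likewise not called in 6 of 13 (adjusted p up to 0.127). Abca1, the other efflux transporter, read 7.87 ± 0.0869 and 8.27 ± 0.348 (difference 0.40, adjusted p = 0.0714), with null array 1 at 8.85 and the other null arrays between 7.98 and 8.27.

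Tmem97, a sterol-regulated membrane protein, fell from 7.68 ± 0.0543 to 7.20 ± 0.364 (SD, n = 5 each; difference -0.48, SE 0.123, adjusted p = 0.0258). These values are of the probe set with the higher mean. Those of a second probe set named Tmem97 are not given here, and signal from close copies was not tested. Its null arrays read 6.57, 7.48, 7.35, 7.38 and 7.23, and all lay below the lowest wild-type array at 7.61; the call held without null array 1 (-0.32, adjusted p = 0.0104) and was lost without wild-type array 1 (adjusted p = 0.0666) and without wild-type array 2 (adjusted p = 0.0563). A covariate for the label number also ended it (-0.60, adjusted p = 0.0920). Of the 14 tested genes of synthesis and supply, 13 were not called. Against heterozygous arrays, Mylip (0.51, adjusted p = 0.0106) and the lipoprotein receptor Vldlr (0.19, adjusted p = 0.0395) were called higher, and Tmem97 (-0.53, adjusted p = 0.0154) and the desaturase Fads1 (-0.23, adjusted p = 0.0431) lower, beside 4.28% and 3.54% of all genes. Of the fits without 1 array, 13 of 15 no longer called Fads1, all but those without null array 2 or null array 3 (adjusted p up to 0.105). Vldlr was not called in 9 of 15, those that left out any of wild-type arrays 2 and 4, heterozygous arrays 1, 2, 3 and 5, and null arrays 1, 3 and 4 (adjusted p up to 0.0969). Mylip and Tmem97 were called in each of the 15, and the Mylip call was lost without both arrays with Xist signal (0.41, adjusted p = 0.0555) and with the label number as a covariate (0.47, adjusted p = 0.134), as was that of Tmem97 with this covariate (-0.65, adjusted p = 0.0718). In heterozygous against wild type 0 of the 29 were called.

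**Figure D5:**
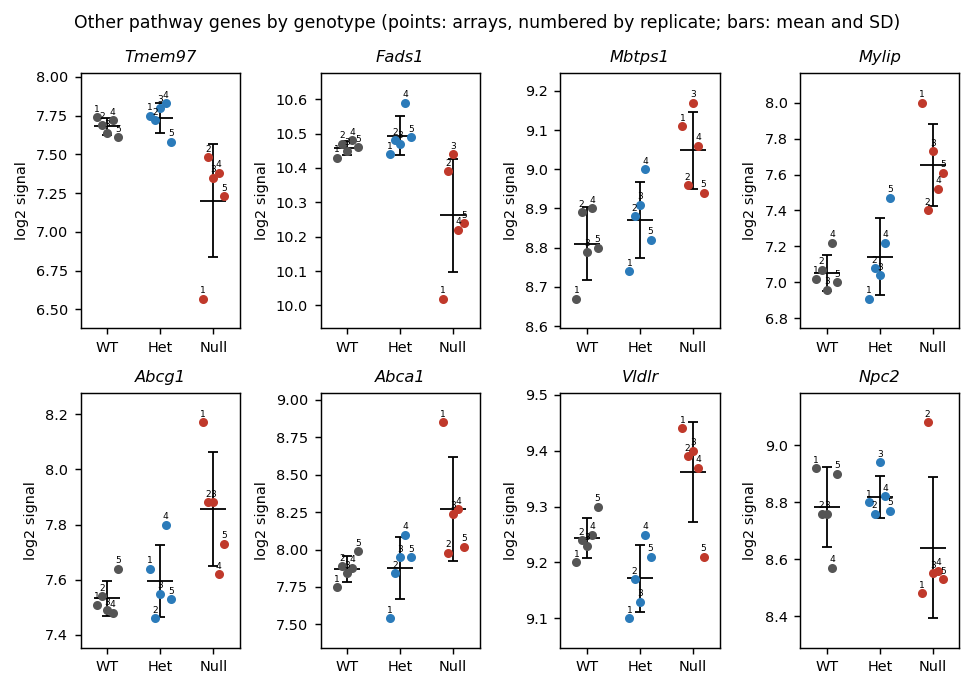
Log2 signal of 8 other genes of sterol and fatty acid handling in each array (points, numbered by replicate) of the 3 genotypes, with mean and SD as bars. Mylip and Mbtps1 are higher in every null array than in any wild-type array, and Tmem97 is lower in every null array. Null array 1 is the highest or the lowest null array in every panel except that of Mbtps1. The null array farthest from the rest is array 2 for Npc2, at 9.08, and array 5 for Vldlr, at 9.21.

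Markers of other cells moved with the null genotype in part. Of the 8 tested astrocyte and radial glia markers, Sox2, Vim and Fgfr3 were called higher in null against wild type. Gfap, Aqp4, Slc1a3, Aldh1l1 and Gja1 were not called. The summed linear signal of the 10 measured ran from 1540 to 1642 in wild-type, 1503 to 2059 in heterozygous and 1844 to 2863 in null arrays. Vim, the strongest of the 10 at 9.19 in wild-type and 9.92 in null arrays on average, weighs most in these sums. Gfap was near the filter, at 5.13 in wild-type and 5.61 in null arrays on average. Stromal fibroblast markers were called in 4 of 8, Dcn, Pdgfra and Fbln1 higher and Ogn lower, with sums from 1797 to 2386 in wild-type and 2454 to 3015 in null arrays. Endothelial Kdr and Cdh5 were called higher of 5 tested. Oligodendrocyte markers, from a cell type that makes much cholesterol for myelin, gave 0 calls of 9 tested, with mean deviations of -0.026, 0.42, 0.047, 0.13 and -0.47 in null arrays 1 to 5, and Olig2 and Sox10 were below the filter. Neuron markers gave 0 calls of 4 tested and cerebellar granule cell markers 0 of 5, with mean deviations from -0.48 to 0.31 and from -0.39 to 0.054 in null arrays. Adipocyte markers were near background, with Adipoq between 3.37 and 4.0 in all arrays. Of 14 tested clock genes, whose levels follow the time of day, Arntl (0.53) and Cry1 (0.40) were called higher and Dbp (-0.47) and Ciart (-0.97) lower. The part of these differences in the sterol gene results was not tested.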

How the data were processed

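Choroid plexus RNA of 15 mice, 5 per Add1 genotype, was labelled from 250 ng of total RNA per the labels' protocols and hybridised to 1 single-colour Affymetrix array each. The deposited values were made by the authors with Affymetrix Expression Console 1.1 and RMA, per the submitters' processing notes; RMA corrects background, equalises quantiles between arrays and summarises probes, which removes differences in total signal and compresses those near background. The deposited values were read as log2 because they run from 1.57 to 13.89 with array medians between 4.78 and 4.88; no header states the base. Not given in the sources used here were the submitters' genome build and annotation.

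Gene names came from the platform annotation: of 35556 probe sets, 21789 had 1 symbol, 1621 several and 12146 none, and 21698 of the named ones matched the GRCm38.p6 gene table. The probe set with the highest mean was kept for each of 19938 genes, and 10109 genes above 5.31, the median of all kept values, in at least 5 arrays were tested. All 15 arrays entered 1 limma fit (version 3.58.1, R 4.3.3; lmFit and eBayes, no covariate), with Benjamini-Hochberg adjustment over all genes tested and a threshold of 0.05. Adjusted p-values in the text are from this fit unless another is named.

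The members, the other gene lists and the tests were chosen with earlier results of these data known. Values in every array are given for members called in a comparison of 2 genotypes, or for the 3 smallest p where none was; other members are given by class, up to 3 by p, and other pathway genes where called, up to 4 per class. Sqle and Insig1 were shown by array, and Lss, Srebf2, Scap, Insig2, Scd2, Acaca, Acly and Abca1 named, after their values were seen. The labels call the samples separate mice but say nothing of litters or batches, so whether the samples are independent is not known. The p-values set each difference against the spread between arrays within genotypes, and the number of arrays limits the precision. Arrays are named by the replicate number of their title; these numbers do not pair arrays. The label number is the part before the dot of each sample's description, and the labels do not say what it means. Label numbers are mostly higher in null than in wild-type arrays, so a fit with this covariate cannot cleanly separate the number from genotype. No 2 arrays were copies: over 105 pairs of arrays, the differences had an SD of at least 0.139. Simulated log2 values in which 200 genes were changed were used to test the fit. Alternatives were other filters, all probe sets, other scalings, fits to 2 genotypes, a variance trend, array weights, blocks, the label number, no moderation, and fits without single arrays or without the arrays with Xist signal.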

Additional observations from a re-analysis of the deposited data

Results flagged for a closer look

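Among 105 groups of 5 arrays (35 genes in 3 genotypes), 8 had an array whose gap to its nearest neighbour was over 0.71 of the group's range; chance gives such a gap in about 1 in 20 groups. In null array 1, Hmgcs1 read 9.04, with the other null arrays at 9.38 to 9.49. Sqle read 7.31 in the same array, with the others at 7.98 to 8.11. Nsdhl, a C4 decarboxylase of the sterol branch, read 5.99 there, with the others at 6.95 to 7.04, and Tmem97 read 6.57, with the others at 7.23 to 7.48. In null array 2, Mvk, the mevalonate kinase, read 6.89, with the others at 6.40 to 6.47. In null array 5, Acaca read 6.78, with the others at 6.99 to 7.04. Insig2 read 9.03 in heterozygous array 1, with the others at 9.16 to 9.21, and Acly read 8.11 in wild-type array 3, with the others at 8.24 to 8.28. Null arrays 1 and 5 are those with Xist signal.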

How the results depend on the processing

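No result changed direction past the threshold under any alternative run. In null against wild type the main count of 3 called members was 5 with arrays centred on their median (Hsd17b7 and Ebp added), 7 with array weights (Fdps, Sqle, Msmo1 and Insig1 added) and 1 without moderated variances, and ran from 2 to 10 over the fits without 1 array; the member median ran from -0.22 to -0.098 over these, and was -0.073 without the arrays with Xist signal in place of -0.16. In null against heterozygous the main count of 4 was 2 with no filter, 1 in the fit to the 2 genotypes, 1 without moderated variances and 1 without the arrays with Xist signal, where the median was -0.049 in place of -0.18, and ran from 1 to 10 over the fits without 1 array. All genes called there numbered 500, 342, 470 and 332 in the same order, against 791, and 356 to 1812 over the fits without 1 array. Heterozygous against wild type gave 0 members in all alternatives, and so did the midpoint, whose alternatives were added after the data were seen. For the slope the main count of 3 was 1 with the replicate block, 0 with the label number as a covariate, 0 without the arrays with Xist signal and 0 without moderated variances, and ran from 1 to 7 over the fits without 1 array. All genes called for it numbered 307, 1, 117 and 205 in the same order, against 567, and 163 to 698 over the fits without 1 array. The causes of these shifts were not tested.

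All genes called in null against wild type numbered 259 with the label number as a covariate and 1315 with array weights, against 780, and 199 and 1296 against 791 in null against heterozygous. With the label number, the members called in both comparisons were Hmgcs1, Idi1, Sqle and Scd1. These 4 were lower, and 0 members were called higher, beside 1.1% and 0.831% of all genes lower. Replicate numbers did not pair the arrays: same-numbered arrays correlated at -0.25 to 0.24 in their deviations from the group means, with 4 of 15 correlations above 0.1, and 1 of 15 arrays correlated best with its own number. With the replicate block, 520 genes were called in null against wild type, Idi1, Scd1 and Srebf1 among them, and 546 in null against heterozygous, without Ebp (adjusted p = 0.0752); Abcg1 (adjusted p = 0.0594) and Mbtps1 (adjusted p = 0.0511) were not called.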
